A study of Mus musculus with 15 samples.

Results

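The genes described here encode structural components of basement membranes other than type IV collagen: the laminin chains Lama2, Lama4, Lama5, Lamb1, Lamb2 and Lamc1, the nidogens Nid1 and Nid2, and the heparan sulfate proteoglycans Hspg2 (perlecan) and Col18a1. They were chosen by name and role, with earlier results of these data known, and make up 10 of the 55487 genes in the tables. All 10 were among the 20718 genes with enough counts to be tested. RNA was sequenced from the left ventricle of male mice in a study of the heart in chronic kidney disease. The kidney disease group held 7 mice with a mutation of Col4a5, a type IV collagen gene, which the labels call a knockdown and the design text a knockout. The control group held 8 wild-type littermates. Both groups were housed together, ate normal chow and were killed at 225 days, an age at which the mutants are described as having advanced chronic kidney disease. No allele name or strain background is given in the labels used here.

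Laminins are cross-shaped trimers of an alpha, a beta and a gamma chain that self-assemble into a sheet on the cell surface, held there by integrins and dystroglycan. Nidogens bind the laminin gamma 1 chain and bridge the laminin sheet to the type IV collagen network, and perlecan links to both and carries heparan sulfate chains that bind growth factors. In the heart such a membrane surrounds every cardiomyocyte and underlies the endothelium of every vessel, and loss of Lama2 causes a muscular dystrophy.

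RefSeq promoter windows (GRCm38.p6) matched 7 of the 10 members, and Lama4, Lamc1 and Nid2 had no entry in the table used. The upstream parts of 4 windows are shown, each cut where an annotated exon begins, because Lama5 and Hspg2 were correlated between animals and because Lamb1 and Lamb2 encode the alternative beta chains. They run 5′ to 3′ on the gene's strand, and capitals mark GC boxes, searched as GGGCGG or its reverse complement CCGCCC.
Lama5, chr2:180225860-180226109, minus strand.
Lama5: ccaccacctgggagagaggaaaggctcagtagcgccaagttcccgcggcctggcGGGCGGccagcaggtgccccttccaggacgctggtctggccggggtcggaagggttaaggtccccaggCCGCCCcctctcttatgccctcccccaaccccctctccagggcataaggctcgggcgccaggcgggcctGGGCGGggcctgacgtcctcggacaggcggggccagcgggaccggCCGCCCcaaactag
Hspg2, chr4:137468553-137468768, plus strand.
Hspg2: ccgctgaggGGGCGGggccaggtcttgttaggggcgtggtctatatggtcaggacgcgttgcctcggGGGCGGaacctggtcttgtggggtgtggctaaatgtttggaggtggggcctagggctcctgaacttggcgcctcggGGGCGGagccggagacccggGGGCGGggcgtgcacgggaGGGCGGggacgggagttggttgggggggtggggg
Lamb1, chr12:31265043-31265233, plus strand.
Lamb1: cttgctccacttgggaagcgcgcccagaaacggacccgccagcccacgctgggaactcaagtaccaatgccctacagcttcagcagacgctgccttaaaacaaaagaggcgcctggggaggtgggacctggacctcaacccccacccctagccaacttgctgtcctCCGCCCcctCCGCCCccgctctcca
Lamb2, chr9:108479612-108479735, plus strand.
Lamb2: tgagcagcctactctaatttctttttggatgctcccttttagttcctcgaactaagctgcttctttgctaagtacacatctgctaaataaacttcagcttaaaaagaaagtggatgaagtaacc
The Hspg2 sequence holds 5 GC boxes, Lama5 4, Lamb1 2 and Lamb2 none. Over the 250 bases upstream of the start site, 5 of the 8 member windows (Col18a1 has 2 of them) held a GC box, against 32.7% of 32851 RefSeq windows of the same length. The TATA motif TATAAA, searched on both strands, was in 0 of the 8 and in 12.4% of all windows. CpG dinucleotides numbered 20 in the 250 bases of Hspg2, 19 in Lama5, 14 in Lamb1 and 3 in Lamb2, beside a median of 6.0 over all windows. These matches describe the letters in the windows.

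Libraries held 48748379 to 65519279 counts. Ttn, the titin gene, led 5 of them (kidney disease 4, 5 and 7, wild type 6 and 7), and the mitochondrial gene mt-Co1 led the other 10. This split crosses the groups, and log2 changes within each side of it are given for members where they differ in sign or by over 1.5 times. CPM values below are counts relative to library size, scaled by TMM factors. In the check of the labels, Col4a5 ranged from 9.19 to 16.2 CPM in mutants and from 50.4 to 65.7 CPM in controls. All 6 cardiomyocyte markers were present in every library, with a summed level of 52397.1 to 63804.3 CPM in kidney disease, against 59107.9 to 77991.3 CPM in wild type. Over all genes, 168 were higher and 98 lower in kidney disease. One kidney disease animal, number 6, stood apart in many of the genes described here, and results that rest on it are also given without it.

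No member passed the test over all genes, a count near the background share. In edgeR's quasi-likelihood test 0 of 10 were called higher, where 0.811% of all genes tested were, and 0 of 10 were called lower, where 0.473% of all genes were. DESeq2 and limma-voom called 0 as well. At an unadjusted p under 0.05 there were 3, Lamb2 and Lama2 with lower and Nid2 with higher values, beside 12.4% of all genes tested, and their 95% intervals did not include 0. The log2 changes (kidney disease minus wild type) ran from -0.24 to 0.19 with a median of -0.02, against 0 over all genes tested, and 4 were positive and 6 negative. In every one of the 10 genes the ranges of the groups overlapped. The share of all genes with overlapping ranges is not given here, so this only describes the members. The tissue was bulk, so fewer cells of a type and less RNA per cell cannot be told apart, and the p-values measure the spread between these animals, which the design text calls biological replicates.

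**Figure D1:**
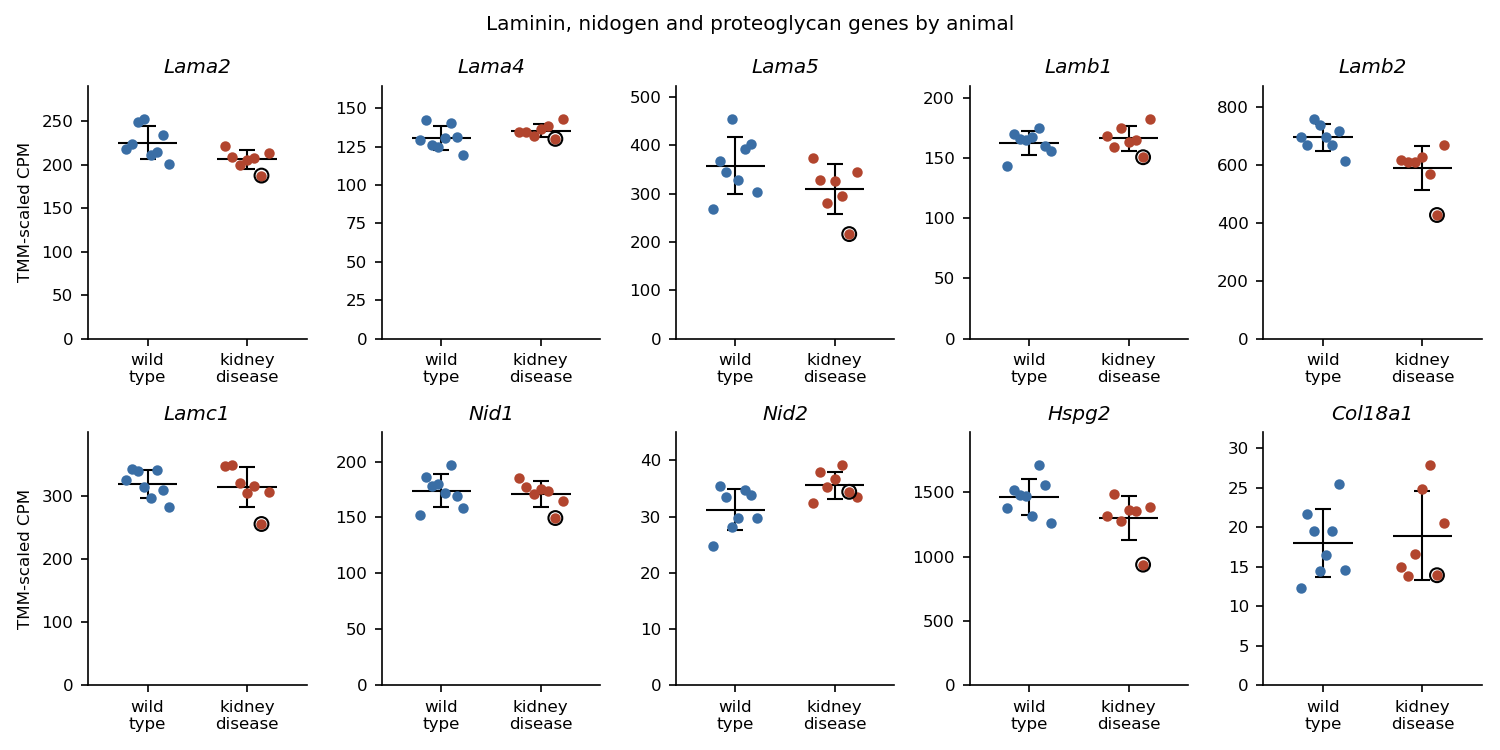
TMM-scaled CPM (vertical axis, from 0) of the 10 genes, with 1 point per animal for 8 wild-type (blue) and 7 kidney disease (red) mice; bars are the mean and SD, and the open ring marks kidney disease 6. The groups overlap in all 10 panels, and kidney disease 6 is the lowest of all 15 animals in 6 of them.

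Levels per length put Lamb2 and Hspg2 far above the other members. On the scale of CPM per kilobase of exon, wild-type means were 114 ± 7.5 for Lamb2 (SD, n = 8) and 99.2 ± 9.66 for Hspg2 (SD, n = 8), and the wild-type ranges of these 2 genes overlapped each other. Lamc1, the gamma chain that most laminins share, followed at 38.5 ± 2.7 CPM per kilobase (SD, n = 8), below every animal's value for Hspg2. Lama5 at 31.4 ± 5.21 overlapped both Lamc1 and Nid1, which had 25.1 ± 2.08 CPM per kilobase. Lamb1 (16.4 ± 1.01) overlapped Lama2 (13.6 ± 1.11). In wild type Lama4 (10.8 ± 0.645) lay below every Lama2 value and Nid2 (6.04 ± 0.722) below every Lama4 value. In kidney disease the highest Lama4 value, 11.9, was above the lowest Lama2 value, 11.3. Col18a1, at 2.56 ± 0.618 CPM per kilobase, was the lowest member and overlapped Lamb3, a laminin chain outside the set, at 3.04 ± 0.373. Of the other laminin genes, Lama3 (0.601) and Lamc3 (0.230) were below 1 CPM per kilobase on average, and Lama1 had 0 to 18 counts per library and was not tested. The order of the genes by wild-type mean was the same with the length of the longest protein-coding transcript in place of the exon length. The values of Lama2, Lama4 and Lamb1 were then larger, at 23.5, 21.6 and 28.1 CPM per kilobase. In kidney disease, means on that scale were 22.4 for Lama4 and 21.4 for Lama2, and 28.8 for Lamb1 and 28.1 for Nid1. The genes of each of these pairs thus stood in the reverse order there. Per kilobase, Lamb2 was the highest of the beta, Lamc1 of the gamma and Lama5 of the alpha chain genes.

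**Figure D2:**
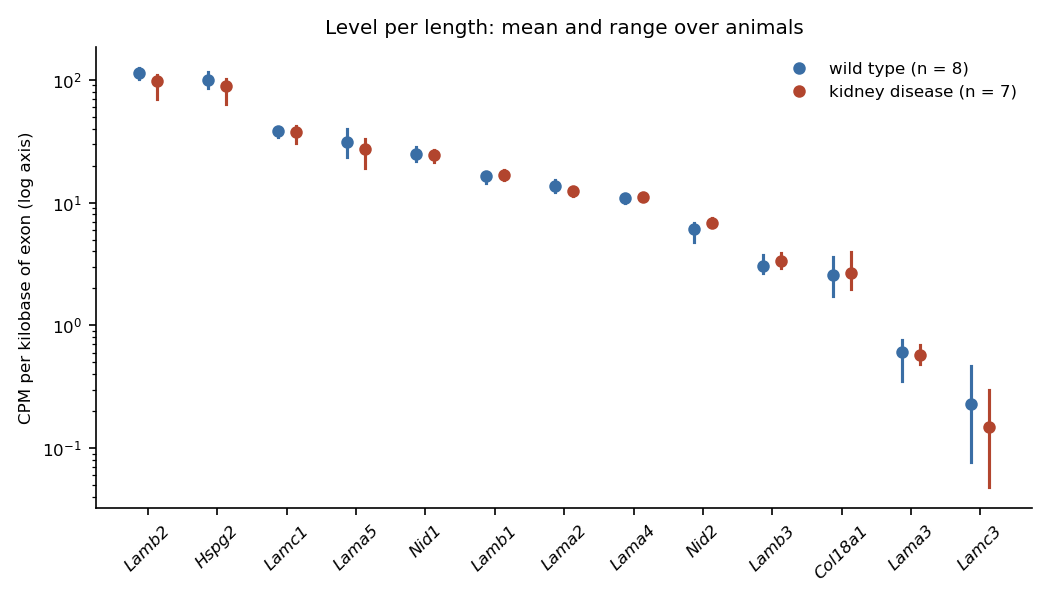
CPM per kilobase of exon on a log axis for the 10 genes and 3 other laminin genes, ordered by wild-type mean; points are means and lines the range over animals, for wild type (blue, n = 8) and kidney disease (red, n = 7). Lamb2 and Hspg2 stand near 100, and Lamc3 near 0.2.

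Among alpha chains, Lama2 encodes the alpha 2 chain of the cardiomyocyte membrane. It lies on chromosome 10 (26980036 to 27619758, GRCm38, minus strand, ENSMUSG00000019899), with 66 merged exons. It was at 187.5 to 221.5 CPM in kidney disease (median 207.2, n = 7), against 200.6 to 252.7 CPM in wild type (median 220.9, n = 8). All 7 kidney disease animals lay below the wild-type mean, and 6 below the wild-type median, but wild type 1, 5, 6 and 8 lay within the kidney disease range. Its log2 change came to -0.13 (SE 0.06, 95% interval -0.25 to -0.01, unadjusted p = 0.038, adjusted p = 0.36 by edgeR). It was between -0.15 and -0.11 in all 26 alternative fits. With 1 animal left out, its unadjusted p by edgeR ran from 0.015 (without wild type 8) to 0.087 (without wild type 4). Without kidney disease 6 the change was -0.11 (unadjusted p = 0.071 by edgeR).

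Lama4 (chromosome 10, 38965515 to 39110188, plus strand, ENSMUSG00000019846) encodes the alpha 4 chain, found mainly around vessels. It had 130.1 to 143.1 CPM in kidney disease (median 134.4), against 119.5 to 142.6 CPM in wild type (median 129.9). All 7 kidney disease values lay above the wild-type median, and the highest values of the groups were nearly equal. This was the steadiest member, with a coefficient of variation of 3.17% in kidney disease and 5.96% in wild type. Its log2 change was 0.05 (SE 0.05, 95% interval -0.05 to 0.16, adjusted p = 0.74). The 8 endothelial markers, whose summed level was 1007.8 to 1212.6 CPM in kidney disease against 938.2 to 1234.5 CPM in wild type, had no called gene, with 8 of 8 log2 changes at or above 0, a median of 0.10 and 2 at an unadjusted p under 0.05. Their part in the value of Lama4 was not tested.

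Lama5 (chromosome 2, 180176373 to 180225859, minus strand, ENSMUSG00000015647) encodes the alpha 5 chain of vessels and epithelia. It ran from 216.3 to 374.2 CPM in kidney disease (median 326.6) and from 268.0 to 454.8 CPM in wild type (median 356.2). The lowest value was in kidney disease 6 and the highest in wild type 4, and 6 of 7 kidney disease animals were below the wild-type median. The fitted log2 change was -0.21 (SE 0.11, 95% interval -0.44 to 0.03, adjusted p = 0.48), and -0.14 without kidney disease 6. Within the 5 libraries led by Ttn it was -0.31 (adjusted p = 0.39), and within the 10 led by mt-Co1 it was -0.20 (adjusted p = 0.62). The endothelial markers had 8 of 8 log2 changes at or above 0. Their part in the value of Lama5 was not tested.

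Lamb1 (chromosome 12, 31265234 to 31329644, plus strand, ENSMUSG00000002900) encodes the beta 1 chain. Kidney disease animals had 150.6 to 182.4 CPM (median 165.3) and wild-type animals 142.9 to 174.6 CPM (median 165.5). The medians nearly coincided. Its log2 change was 0.03 (SE 0.06, 95% interval -0.08 to 0.15, adjusted p = 0.89).

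Lamb2 (chromosome 9, 108479736 to 108490530, plus strand, ENSMUSG00000052911) encodes the beta 2 chain, which is enriched at neuromuscular junctions and in the glomerular membrane and is also present in the heart. It had 427.1 to 668.0 CPM in kidney disease (median 611.4), against 612.8 to 759.3 CPM in wild type (median 696.1). All 7 kidney disease animals were below the wild-type median, and of the wild-type animals only number 8 (612.8 CPM) came down to the level of the kidney disease group, where 3 animals were above it. The log2 change was -0.24 (SE 0.08, 95% interval -0.40 to -0.07, unadjusted p = 0.0068, adjusted p = 0.17 by edgeR). This had the smallest p of the 10 members, and ranked 838 of all 20718 genes by p. Without kidney disease 6, which had 427.1 CPM where the rest of its group had at least 567.5, the change was -0.17 (adjusted p = 0.18). The smallest adjusted p over the 26 alternatives was 0.06, by DESeq2. Within the mt-Co1-led libraries the change was -0.29 (adjusted p = 0.22), and within the Ttn-led ones -0.17 (adjusted p = 0.67). Cardiomyocyte markers had a median log2 change of -0.12 with 0 of 6 called, and 3 lower and 0 higher at an unadjusted p under 0.05. They differed among themselves, with 4 negative and 2 positive log2 changes (Tnnt2 0.03 and Tnni3 0.02). The part of these markers in the values of Lamb2 was not tested.

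The gamma chain gene Lamc1 (chromosome 1, 153218922 to 153332786, minus strand, ENSMUSG00000026478), whose product completes most laminin trimers, had 254.9 to 347.6 CPM in kidney disease (median 315.0), against 282.2 to 342.1 CPM in wild type (median 318.9). The groups overlapped, with kidney disease 6 the lowest and wild type 8 the next lowest of all animals. Its log2 change came to -0.02 (SE 0.07, 95% interval -0.16 to 0.12, adjusted p = 0.95), and without kidney disease 6 it was 0.02. Within the 10 libraries led by mt-Co1 it was 0.01 (adjusted p = 0.98) and within the 5 led by Ttn -0.08 (adjusted p = 0.84).

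The nidogen gene Nid1 (chromosome 13, 13437551 to 13512269, plus strand, ENSMUSG00000005397) was at 149.5 to 185.0 CPM in kidney disease (median 173.6), against 152.1 to 196.6 CPM in wild type (median 175.0). The groups overlapped nearly completely, with a log2 change of -0.03 (SE 0.06, 95% interval -0.15 to 0.10, adjusted p = 0.92). It was -0.0011 within the mt-Co1-led libraries (adjusted p = 1.0) and -0.10 within the Ttn-led ones (adjusted p = 0.81).

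Nid2 (chromosome 14, 19751265 to 19811787, plus strand, ENSMUSG00000021806), the second nidogen, had 32.5 to 39.1 CPM in kidney disease (median 35.2), against 24.8 to 35.4 CPM in wild type (median 31.6). All 7 kidney disease animals lay above the wild-type median, and wild type 1 was the lowest of all 15. The fitted log2 change was 0.19 (SE 0.07, 95% interval 0.04 to 0.34, unadjusted p = 0.017, adjusted p = 0.26 by edgeR). Nid2 shares 437 exon bases with Rtraf, a gene on the opposite strand with more counts (a mean of 3448 per library against 1868), so its reads are uncertain where the counting ignored strand. The 8 fibroblast markers, of cells that can make nidogens, had 4 called higher and a median of 0.20, and a sum of 765 to 847 CPM in kidney disease against 666.3 to 788.5 CPM in wild type. Their part in the value of Nid2 was not tested. Within the 5 libraries led by Ttn the change was 0.08 (adjusted p = 0.86), and within the 10 led by mt-Co1 it was 0.21 (adjusted p = 0.31).

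The proteoglycan gene Hspg2 (chromosome 4, 137468769 to 137570630, plus strand, ENSMUSG00000028763) encodes perlecan in 97 merged exons. It was the highest member in total counts, at 936.8 to 1484.2 CPM in kidney disease (median 1351.0), against 1263.4 to 1709.1 CPM in wild type (median 1475.3). Kidney disease 6 lay below every other animal, and 6 of 7 kidney disease animals lay below the wild-type median. The log2 change was -0.17 (SE 0.09, 95% interval -0.35 to 0.01, adjusted p = 0.45), and -0.10 without kidney disease 6. Within the mt-Co1-led libraries the value was -0.16 (adjusted p = 0.53), and within the Ttn-led ones -0.26 (adjusted p = 0.41).

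Col18a1 (chromosome 10, 77052178 to 77166548, minus strand, ENSMUSG00000001435) encodes the collagen XVIII core protein, whose end fragment is endostatin. It had 13.8 to 27.8 CPM in kidney disease (median 16.6), against 12.3 to 25.4 CPM in wild type (median 18), the widest spread of the members at 29.6% and 24.1% coefficient of variation. Its log2 change came to 0.07 (SE 0.17, 95% interval -0.28 to 0.42, adjusted p = 0.92). In kidney disease the values split by the gene that led the library, and in wild type they overlapped. The 3 kidney disease libraries led by Ttn had 20.5 to 27.8 CPM and the 4 led by mt-Co1 had 13.8 to 16.6. In wild type the values were 19.5 to 25.4 in the 2 led by Ttn and 12.3 to 21.7 in the 6 led by mt-Co1. With the leading gene as a covariate the change was -0.06, the opposite direction (adjusted p = 0.81), while it was -0.15 within the mt-Co1-led libraries (adjusted p = 0.66) and 0.11 within the Ttn-led ones (adjusted p = 0.88).

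**Figure D3:**
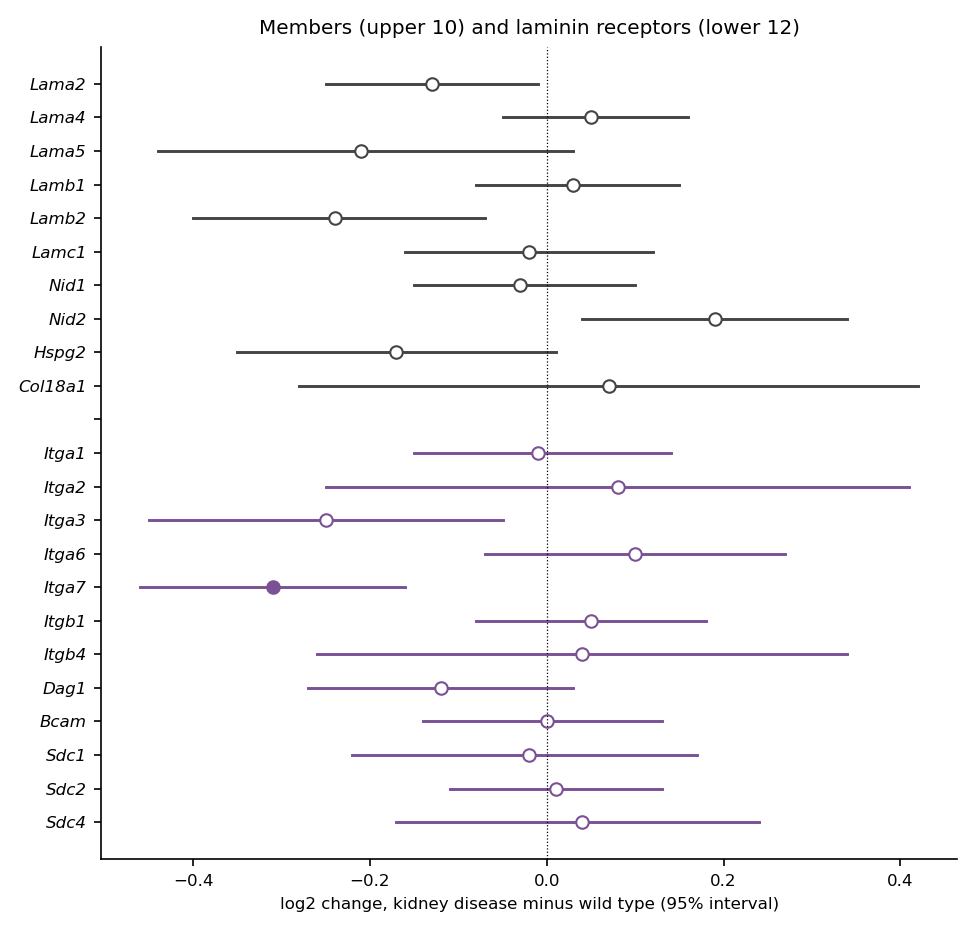
Log2 change, kidney disease minus wild type, with the 95% interval, for the 10 members (upper) and 12 laminin receptor genes (lower); a filled point is a gene with adjusted p under 0.05. Only Itga7, at -0.31, is filled.

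Within a chain type, the median share of Lamb1 among beta chains was larger in kidney disease, with overlapping ranges. Levels per kilobase of exon were divided by their sum over the chains in each animal, and these shares are described without a test. Lamb1 made up 13.7 to 17.8% of the beta chain sum in kidney disease (median 14.3%) and 11.2 to 13.8% in wild type (median 12.5%), and all 7 kidney disease animals were above the wild-type median. In 5 of 7 the share of Lamb2 was below the lowest wild-type share of 86.2%. The highest Lamb1 share, 17.8%, was in kidney disease 6, and the next highest in that group was 15.2%. The beta chain sum was 2.77 to 3.47 times the gamma chain level in kidney disease (median 2.89) and 3.08 to 3.68 times in wild type (median 3.43). Nid2 made up 19.1 to 23.6% of the nidogens in kidney disease (median 21.9%) and 17.3 to 21.2% in wild type (median 19.6%). The alpha chain shares overlapped more widely. Lama5 had 46.3 to 57.3% (median 54.8%) against 49.7 to 61.0% (median 55.5%), and Lama4 19.4 to 26.3% (median 21.6%) against 15.8 to 22.6% (median 20.0%). Lama2 had a median of 23.9% in both groups.

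**Figure D4:**
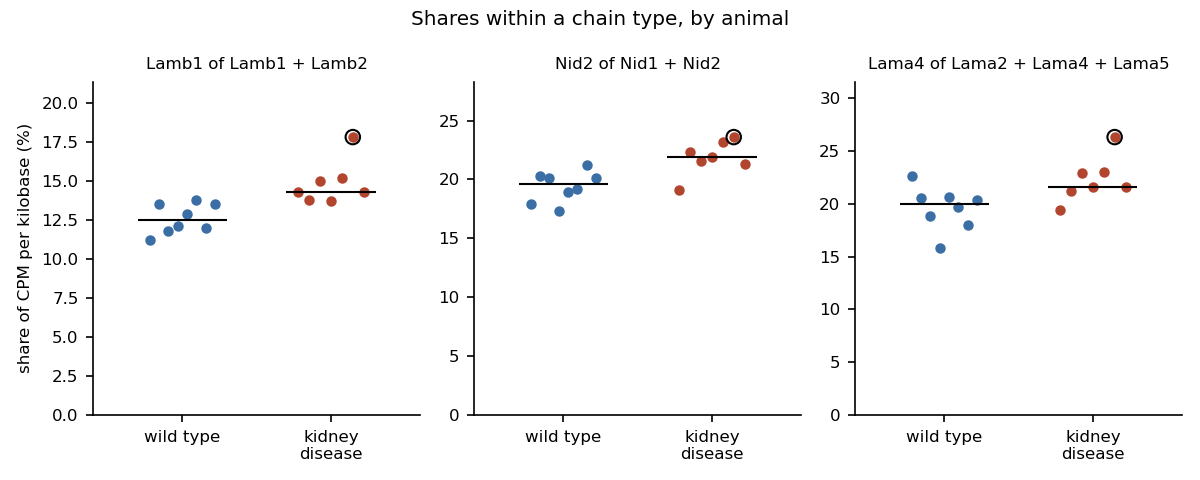
Share (%) of CPM per kilobase of Lamb1 among beta chains, Nid2 among nidogens and Lama4 among alpha chains, 1 point per animal, with the group median as a line and a ring around kidney disease 6. Kidney disease medians are 14.3%, 21.9% and 21.6%, against 12.5%, 19.6% and 20.0% in wild type.

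Kidney disease 6 had low values in much of the set. It was the lowest of 15 animals in Lama2, Lama5, Lamb2, Lamc1, Nid1 and Hspg2. It was below the mean of the other kidney disease animals in 10 of 10 members, with a median deviation of -0.28 on the log2 scale. The deviation was only -0.05 in Nid2 and -0.07 in Lama4. Wild type 8 was also below the rest of its group in 10 of 10, with a median of -0.19. Exon lengths of the members were between the 70.2 and 98.7 percentile of genes tested, and their GC content between the 42.2 and 97.1 percentile. In kidney disease 6 the 807 tested genes that were both long and GC-rich (at least 5751 bases and 53.9% GC) had a median deviation of -0.24, the 5181 long genes -0.12, the 5171 GC-rich genes 0.01 and all genes 0.01. Of the members only Lama5, Lamb2, Hspg2 and Col18a1 met both cuts, and Nid2 (5174 bases) was under the length cut. In kidney disease 6 the summed markers of cardiomyocytes, atrial cardiomyocytes, erythroid cells, adipocytes and lymphatic endothelium were the lowest of 15. Those of macrophages were the highest. The cardiomyocyte genes did not move together. Myh6, the largest part of that sum, was the lowest of 15 in this animal (27758.1 CPM), as was Ryr2 (3476.7 CPM). Its Tnnt2 (6568.8 CPM) and Tnni3 (4421.1 CPM) were the highest of 15, and its Actc1 (9612.7 CPM) the highest of the kidney disease group. Of the lymphatic genes, Prox1, Mmrn1 and Reln were lowest in kidney disease 6, and Lyve1, Pdpn and Flt4 were not. Counted from the lowest, its Schwann cell sum was at place 2 of 15, mesothelial 4, fibroblast 8, smooth muscle and pericyte 9 and endothelial 13. Macrophage markers overall summed to 224 to 299 CPM in kidney disease against 172 to 203 CPM in wild type, with 5 of 6 called higher. Of the other lists, 1 of 5 mesothelial markers was called higher (Wt1). For smooth muscle and pericytes 0 of 9 were called and for Schwann cells 0 of 6, with 2 and 0 at an unadjusted p under 0.05. For erythroid cells 0 of 5 were called, with 5 lower unadjusted, and for lymphatic endothelium 0 of 6, with 3 lower and 1 higher. For atrial cardiomyocytes 0 of 5 were called, with 0 unadjusted, and for adipocytes 0 of 3 tested, with 1 lower. The part of these cell types in the levels of the members was not tested.

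**Figure D5:**
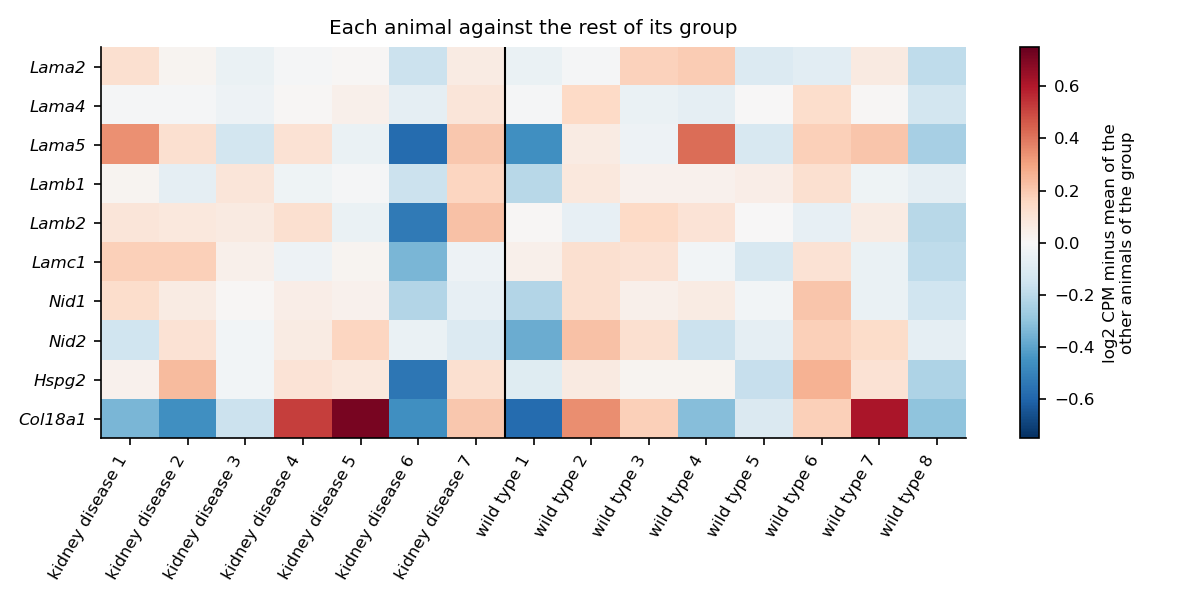
Log2 CPM of each of the 10 genes in each of the 15 animals minus the mean of the other animals of its group (colour, blue lower and red higher). Kidney disease 6 is blue in all 10 rows, with -0.54 in Hspg2 and -0.58 in Lama5, and Col18a1 varies most.

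Most pairs of members were positively correlated between animals of a group. Over 15 animals, with group means removed, 44 of 45 pairs had a positive Pearson correlation, with a median r of 0.51, and 0.36 without kidney disease 6 (42 pairs positive). Within the 10 libraries led by mt-Co1 the median was 0.53. By permutation within groups, adjusted over the 45 pairs, 9 pairs passed by r, 3 by Spearman's rho and 3 by both: Lamc1 with Nid1, Lama2 with Lama5 and Lama2 with Lamb2. The gamma chain and the nidogen that binds it, Lamc1 and Nid1, had r = 0.73 (permutation p = 0.0029, adjusted p = 0.023) and rho = 0.76 (permutation p = 0.0024, adjusted p = 0.036), with r = 0.50 without the 2 animals farthest from the median of Lamc1 and 0.74 within the mt-Co1-led libraries. Lama2 and Lama5 had r = 0.71 (permutation p = 0.0042, adjusted p = 0.025) and rho = 0.76 (permutation p = 0.002, adjusted p = 0.036), and 0.62 without the 2 farthest. Lama2 and Lamb2, which assemble into muscle laminin, had r = 0.71 (permutation p = 0.00026, adjusted p = 0.012) and rho = 0.79 (permutation p = 0.00071, adjusted p = 0.032), and 0.69 without the 2 farthest. All levels share library depth and scaling, which a correlation cannot separate. The share of positive pairs among other genes is not given here, so the pairs only describe the members. Among 14532 protein-coding genes ranked by r, Nid1 stood at place 469 for Lamc1, and Lamb2 at place 216 for Lama2.

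The highest r were Lamc1 with Hspg2 at 0.81 (permutation p = 0.0023, adjusted p = 0.023; rho 0.50, permutation p = 0.068, adjusted p = 0.25), Lama5 with Nid1 at 0.77 (permutation p = 0.0016, adjusted p = 0.023; rho 0.63, permutation p = 0.018, adjusted p = 0.10) and Lama5 with Hspg2 at 0.75 (permutation p = 0.0045, adjusted p = 0.025; rho 0.67, permutation p = 0.0081, adjusted p = 0.073). Without the 2 farthest animals they were 0.44, 0.50 and 0.57. Lamb2 with Lamc1 had r = 0.66 (permutation p = 0.036, adjusted p = 0.10; rho 0.26, permutation p = 0.35, adjusted p = 0.50) and -0.22 without kidney disease 6 and wild type 8, so that relation rests on these animals. Nid1 with Nid2 had r = 0.56 (permutation p = 0.045, adjusted p = 0.11; rho 0.40, permutation p = 0.16, adjusted p = 0.35) and Lamb1 with Lamc1 0.37 (permutation p = 0.19, adjusted p = 0.25; rho 0.30, permutation p = 0.28, adjusted p = 0.46). The lowest were Lama2 with Lama4 at 0.08 (permutation p = 0.81, adjusted p = 0.84; rho -0.01, permutation p = 0.99, adjusted p = 0.99), Lama2 with Nid2 at 0.04 (permutation p = 0.90, adjusted p = 0.92; rho -0.04, permutation p = 0.91, adjusted p = 0.95) and Lamb2 with Nid2 at -0.01 (permutation p = 0.96, adjusted p = 0.96; rho -0.29, permutation p = 0.29, adjusted p = 0.46). The genes most like Lamc1 over the 15 animals were Camta2 (r = 0.93), Gsk3b (0.92), Tcof1 (0.91), Heg1 (0.91) and Wnk1 (0.90), among 14532 protein-coding genes. Those most like Lama2 were Zfp809 (0.88), Pik3r4 (0.86), Phlpp1 (0.85), Phldb1 (0.85) and Gata6 (0.85). These r describe likeness across 15 animals and were chosen as the highest. In the same ranking the other members stood between place 139 (Hspg2) and 5621 (Col18a1) for Lamc1, and between 190 (Lama5) and 6309 (Nid2) for Lama2, so many genes outside the set were more like these chains than the members were.

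Lists of the surrounding pathway, set up from the members' known partners with earlier results of these data known, held 84 tested genes. Of these 0 were called higher and 3 lower, or 3.57%, beside 0.473% of all genes tested. The 3 include the mutated gene itself and its neighbour Col4a6, and the share describes the lists without testing them. Of the 12 laminin receptors, 1 fell and none rose (0 with higher values at an unadjusted p under 0.05). It was Itga7, the integrin alpha 7 subunit that binds laminin on striated muscle, at 176.8 to 208.6 CPM in kidney disease, while wild type had a median of 234.7 and a highest value of 282.7 CPM. All 7 kidney disease values were below the wild-type median, and the groups overlapped. The fitted log2 change was -0.31 (SE 0.07, adjusted p = 0.038 by edgeR). With 1 library left out the call held in 4 of 15 fits, namely when kidney disease 2 or one of the wild-type animals 2, 7 and 8 was omitted, and the largest adjusted p was 0.081. Within the mt-Co1-led libraries the log2 change of Itga7 was -0.36 (adjusted p = 0.096), and within the Ttn-led ones -0.15 (adjusted p = 0.67). The dystroglycan gene Dag1 (-0.12, SE 0.07, adjusted p = 0.56) and the shared integrin subunit gene Itgb1 (0.05, SE 0.06, adjusted p = 0.82) did not pass. Itga3 had -0.25 (adjusted p = 0.25), the second smallest p of the list.

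Of 6 type IV collagen chains 2 fell, the mutated Col4a5 (-2.08) and its neighbour Col4a6 (-3.73). Col4a1 and Col4a2, which form the main network that laminin and nidogen join, had -0.05 (adjusted p = 0.89) and -0.06 (adjusted p = 0.82). In the 19 tested other basement membrane components none was called by edgeR (5 at an unadjusted p under 0.05, DESeq2 3, limma-voom 0), with a median of 0.06. The smallest p were those of Fbln2 (0.18, SE 0.05, adjusted p = 0.08), a fibulin, and Ntn4 (0.21, SE 0.06, adjusted p = 0.093), a netrin that binds laminin gamma chains. In the 4 tested other laminin chains none was called (0 unadjusted, DESeq2 0, limma-voom 0) and the median was -0.14. Lamc3 had -0.63 (adjusted p = 0.52).

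In the dystrophin and sarcoglycan complex, which ties dystroglycan to the cytoskeleton, edgeR called 0 of 12 (6 at an unadjusted p under 0.05, DESeq2 1, limma-voom 0), and 10 of 12 log2 changes were negative, with a median of -0.10. Dtna had -0.22 (adjusted p = 0.079) and Sntb2 0.20 (adjusted p = 0.13). In the enzymes that build the laminin-binding glycan of dystroglycan it called 0 of 12 tested (5 unadjusted, DESeq2 0, limma-voom 0), with a median of -0.11 and 9 negative. In the heparan sulfate enzymes, which act on perlecan and Col18a1, it called 0 of 19 (3 unadjusted, DESeq2 0, limma-voom 0) with a median of 0. Extl3 had -0.15 (adjusted p = 0.27) and Sulf1 0.21 (adjusted p = 0.32).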

How the data were processed

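Left ventricle RNA of 15 male mice was sequenced after removal of ribosomal RNA; the labels state an RNA integrity number of at least 8. Each deposited table holds the authors' raw counts, CPM and FPKM per gene. STAR 2.7.9a and featureCounts 2.0.3 on GRCm38 made them, per the submitters' processing notes; the counting options, strand among them, were not given in the sources used here. The deposited CPM and FPKM were recomputed from the deposited counts within 1e-06 and not used further. Symbols and positions came from GENCODE M21, in which 55227 identifiers were found. The labels name isoflurane in titles and ketamine with xylazine in the protocol.

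Counts were scaled by TMM and tested with edgeR 4.0.16 in R 4.3.3 (quasi-likelihood test, group only, filterByExpr with a minimum count of 10), with Benjamini-Hochberg adjustment over all 20718 genes and a threshold of 0.05. DESeq2 1.42.0, limma 3.58.1 (voom) and other scalings, filters, the replicate block, the leading gene of the library, leave-one-out fits and, chosen after seeing the data, libraries led by Ttn were alternatives. No pair of libraries of the same group agreed within sampling noise (over these 49 pairs, chi-square divided by its degrees of freedom was at least 6.89). Depth leaves the spread between animals as the main error. The pipeline was checked on simulated counts. The members and lists were chosen with earlier results of these data known. Named genes are all members, the called genes of each pathway list or else the 2 with the smallest p, the 5 genes most like Lamc1 and most like Lama2, Col4a5, and fixed member pairs with the 3 highest and 3 lowest r; some genes that this rule names are not reported here. Dag1, Itgb1, Col4a1, Col4a2, Lama3 and Lamb3 were added for their known role, and Rtraf for its overlap with Nid2.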

Additional observations from a re-analysis of the deposited data

Results flagged for a closer look

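In a search of 24 groups of values, 2 single animals lay far from the rest of their group, where chance alone picks about 1 in 20 groups, or 1.2 here. Both were kidney disease 6. Its Lamb2 level was 427 CPM, while the other 6 kidney disease animals had 567.5 to 668 CPM, and the gap to the nearest was 0.583 of the group's range. Its Hspg2 level was 937 CPM, while the others had 1276 to 1484 CPM, a gap of 0.62 of the range. Both genes are long, abundant and GC-rich, and the part of these traits in the low values was not tested. The same animal was lowest in 4 other members.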

How the results depend on the processing

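Of 260 fits of the 10 members under 26 alternatives, 252 kept the direction and stayed short of the threshold, 8 reversed and none passed. Reversed values belonged to Col18a1, Lamc1 and Nid1. Col18a1 was -0.0637 with the leading gene as covariate and -0.1539 within the mt-Co1-led libraries, and -0.0456 to 0.1598 with 1 animal left out. Lamc1 was 0.0086 within the mt-Co1-led libraries and -0.0476 to 0.0230 with 1 animal left out, and Nid1 -0.0510 to 0.0048. The cause was not tested. In the replicate block fit Lamb2 had -0.2725 (adjusted p = 0.11) and Itga7 -0.3315 (adjusted p = 0.066, no longer called), and over all genes 63 rose and 51 fell; replicate numbers did not pair the animals (same-number correlations -0.20 to 0.42, 2 of 7 over 0.1, 2 animals best with their own number). Over all genes DESeq2 called 640 and the covariate fit 523, against 266, with 86 within the mt-Co1-led libraries, 3 within the Ttn-led ones, and 97 (without wild type 5) to 388 (without wild type 7) with 1 animal left out. Among pathway genes, 0 were called higher and 3 lower; DESeq2 called 3 higher (Sparc, Fbln2, Ntn4) and the covariate fit 2 (Sparc, Fbln2), Dtna was also called lower by both, with upper-quartile scaling and with the 1 CPM filter (4 lower in each), and leaving out 1 animal gave 0 to 1 higher and 2 to 5 lower, with 5 without wild type 7 (Dtna among them).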
